A study of Mus musculus with 27 samples.

Results

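The genes described here are the axon guidance ligands and receptors of the mouse: the semaphorins of classes 3 to 7 with their plexin and neuropilin receptors, the ephrins and Eph receptors, the Slits and Robo receptors, and the netrins with their Unc5 and Dcc receptors. They were taken by gene symbol from the ganglion count table, where 72 symbols matched and 3 antisense symbols (Plxna4os) were left out, which leaves 69 of 55367 symbols. Of the 69 members, 67 passed the low count filter in dorsal root ganglia (all but Epha1 and Robo3) and 49 in retinal ganglion cells.

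Guidance molecules steer growing axons during development. Class 3 semaphorins are secreted and act mostly through a neuropilin bound to a plexin-A, whereas most membrane-bound semaphorins bind plexins directly. Ephrins are membrane-bound ligands of the Eph receptor tyrosine kinases. Slits are secreted ligands of Robo receptors, and netrins attract axons through Dcc or repel them through Unc5. In the adult nervous system these genes are also expressed by glia, endothelium, fibroblasts and immune cells, and several of the ligands inhibit axon growth.

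The study measured polyadenylated RNA in 27 libraries of 9 groups, with 3 libraries in each. In the ganglion experiment, bulk L4-L5 dorsal root ganglia, where sensory neurons of the sciatic nerve have their cell bodies, came from wild-type mice after sham surgery (called intact in the titles) or 3 days after sciatic nerve injury, and from Ptpn2 KO mice after sham surgery or injury. The last ganglion group was injured wild-type mice given RU521, an inhibitor of the DNA sensor cGAS, in the sciatic nerve. In the retinal experiment, retinal ganglion cells were picked 3 days after optic nerve injury, so every retinal group was injured. All its mice carried the Ptpn2 flox allele and received an AAV with Cre (called knockout below) or GFP (called wild type) in the eye 2 weeks before injury, and PBS or IFNγ injected into the eye right after it. Ptpn2 encodes a tyrosine phosphatase that dephosphorylates JAK and STAT proteins. The driver of the Ptpn2 deletion in ganglia, whether the 3 libraries of a group are separate animals, the age of the mice and the number of cells in a retinal library were not stated in the labels used, so p-values measure only the spread between these libraries.

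Ganglion libraries held 14813365 to 22414750 counts and retinal libraries 13239988 to 17122057. A level of 3 counts, taken as the floor of detection, corresponded to 0.134 to 0.203 CPM (library-scaled counts, by the TMM method) for ganglion libraries and 0.175 to 0.227 CPM for retinal ones. Ptpn2 itself was at 11.6 to 19.2 CPM in wild-type and 10.5 to 15.8 CPM in knockout sham ganglia, and at 15.8 to 19.7 CPM and 18.5 to 26.4 CPM after injury. Its gene count did not differ between genotypes by the test (log2 -0.19 ± 0.22 and 0.38 ± 0.22). In retinal cells it was at 3.38 to 10.5 CPM with GFP and 7.69 to 10.1 CPM with Cre after PBS, and between 0 and 23.8 CPM after IFNγ. A count over all exons still holds transcripts that lack only the deleted part, so it checks neither label. Wild-type sham replicates 1 and 3 stood apart from all other ganglion libraries, with 26235 and 26802 detected genes against 28803 to 34340 elsewhere. Replicate 2 of that group had 34115, and its sensory neuron markers summed to 6090 CPM against 10100 and 10200 CPM, its macrophage markers to 1000 CPM against 328 and 388 CPM. All 10 sensory neuron markers and all 6 satellite glia markers were detected in every ganglion group, and all 10 retinal ganglion cell markers in every retinal group. Retinal knockout PBS replicate 2 also held macrophage markers at 2570 CPM against 20.7 and 53.9 CPM in the other libraries of its group. Its Müller glia markers summed to 2000 CPM against 134 and 293 CPM.

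Nearly all members were detected in ganglia: 68 or 69 of the 69 reached 3 counts in each library. Levels between genes were compared per kilobase of exon, as the mean over the 15 libraries. The highest was Sema3b, a secreted class 3 semaphorin, at 43.37 CPM per kb. The ephrins Efna1 (27.48 CPM per kb) and Efna5 (12.9) followed, then Plxnc1 (10.96), the receptor of the membrane-anchored Sema7a. Among the other receptors, the highest were the kinase-inactive Ephb6 at 6.974, Nrp1 at 6.075, Plxnd1 at 5.27 and Robo2 at 4.572 CPM per kb. Efnb1 led the ephrin-B genes (4.598), Slit1 the Slits (2.012), Ntn1 the netrins (1.182), Epha6 the EphA receptors (0.953) and Unc5a the netrin receptors (0.6087). The netrin receptors were low as a class, with a median of 0.282 CPM per kb over 5 genes, whereas the 9 plexins had a median of 2.479. The lowest member was Robo3, at 0.04683 CPM per kb. Exons that other genes share made up at most 1.38% of the exon bases of any called member (Plxnc1), but 10.71% in Plxna1, whose counts are less certain for that reason.

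**Figure D1:**
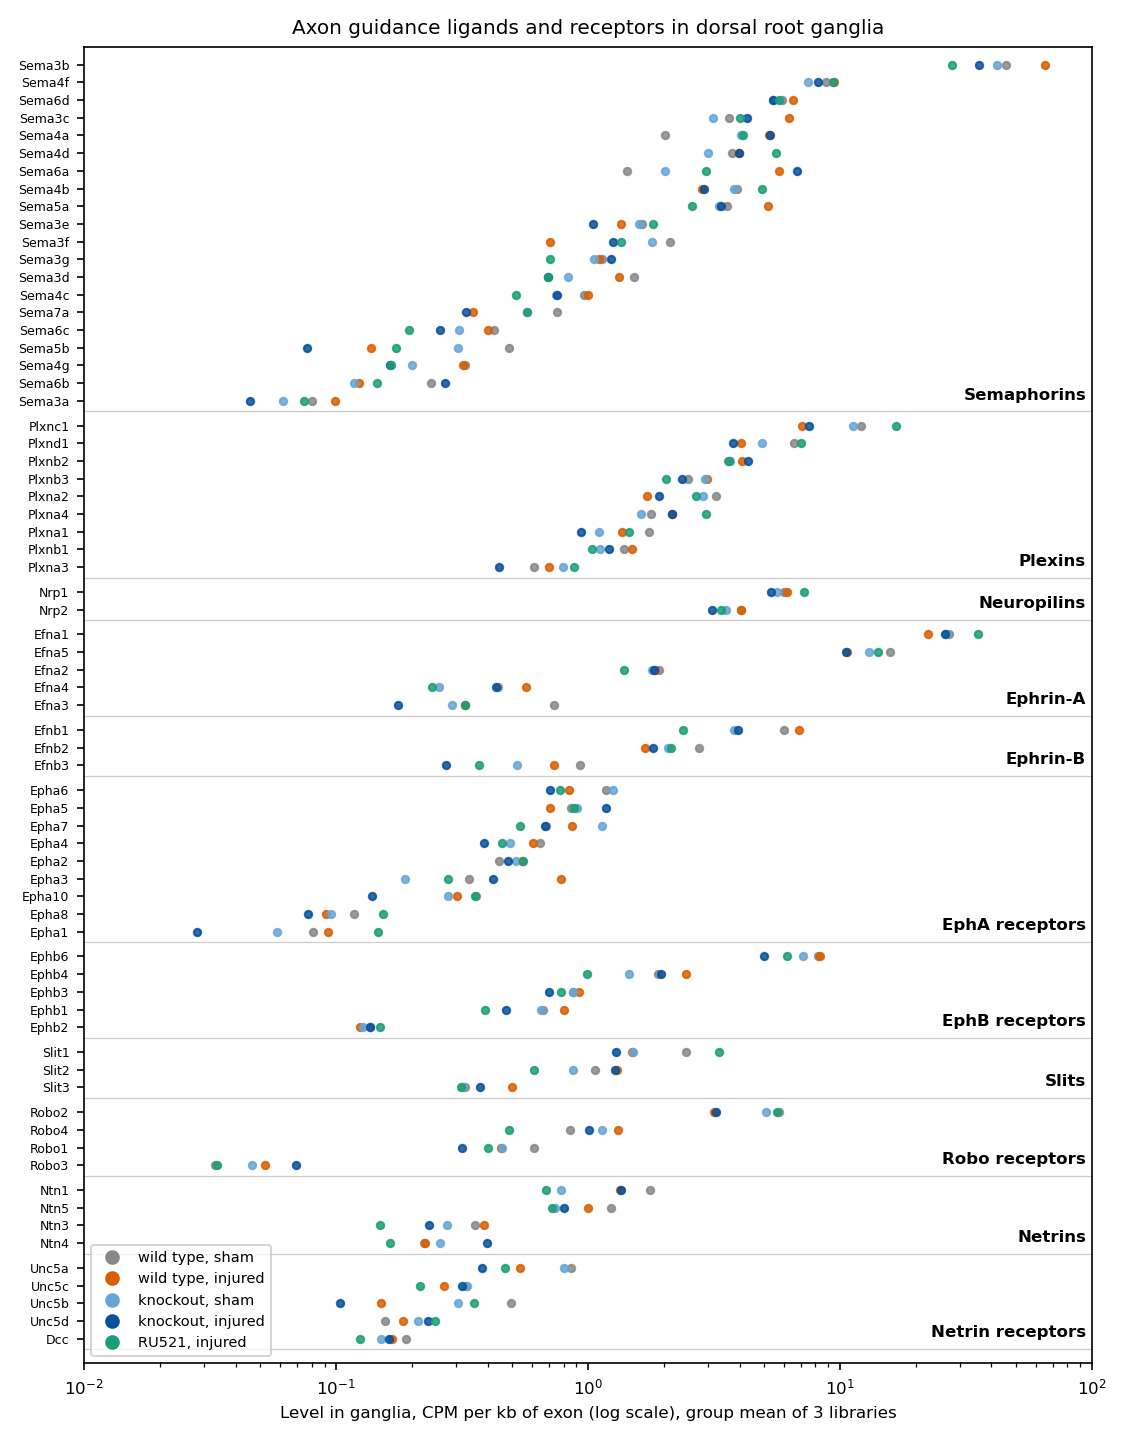
Level of the 69 guidance genes in dorsal root ganglia, as CPM per kilobase of exon on a log scale, with 1 point for each group mean of 3 libraries and genes ordered by level within each class. Sema3b (mean 43.37) and Efna1 (27.48) stand highest, and Robo3 (0.04683) lies lowest.

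Sciatic nerve injury in wild-type ganglia raised 5 members and lowered 6, out of 67 tested (edgeR's quasi-likelihood test, p adjusted by Benjamini-Hochberg across 18517 genes, threshold 0.05). That is 16.4% of the members, against 16.6% of all genes, close to the share of all genes. For increases the share of all genes was 8.6% and for decreases 7.98%. All 5 increases were semaphorins. Of the 20 semaphorins 5 rose and 2 fell, of the 9 plexins 2 fell, and 1 ephrin-B and 1 netrin receptor fell. The median log2 change was -0.04 over the members and 0.00 over all genes.

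Sema6a, a transmembrane semaphorin that binds class A plexins, changed most by p. Sham-operated ganglia held 14.8, 10.7 and 12.2 CPM and injured ganglia 29.6, 65.5 and 55.5 CPM. The groups did not overlap, although the first injured library lay between the sham libraries and the other injured ones. The log2 fold change was 2.00 ± 0.28 (SE, n = 3 per group, edgeR adjusted p = 0.000912), and it remained past the threshold when each library was left out in turn (1.74 to 2.25).

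Sema4a, a membrane semaphorin known from immune cells and the vasculature, stood at 10.1, 11.2 and 11.6 CPM in sham and at 32.1, 27.3 and 25.2 CPM in injured ganglia. All injured libraries were higher, by a log2 of 1.36 ± 0.28 (edgeR adjusted p = 0.0055). Sema3c, a secreted class 3 ligand, was at 24.6, 26.4 and 26.5 CPM in sham and 41.7, 49.9 and 42.9 CPM in injured ganglia. It rose by 0.80 ± 0.18 (edgeR adjusted p = 0.00957), again without overlap. Sema5a, a transmembrane semaphorin with thrombospondin repeats, rose from 58.7, 75.4 and 64.9 to 98.3, 98.4 and 94.2 CPM (0.55 ± 0.14). Sema3b rose from 243, 200 and 213 to 306, 337 and 296 CPM (0.52 ± 0.15). In these last pairs of groups the injured libraries all lay above the sham libraries, but the changes were smaller than that of Sema6a.

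Among the decreases, Sema3f, a class 3 ligand that acts through Nrp2, fell from 10.3, 9.99 and 12.7 CPM to 4.81, 2.58 and 3.66 CPM. The log2 fold change was -1.58 ± 0.32 (edgeR adjusted p = 0.00544), with no overlap between groups. Plxna2, a receptor of class 3 and class 6 semaphorins, fell from 73.2, 36.9 and 56.1 to 32.6, 25.3 and 30.5 CPM (-0.91 ± 0.21). Plxnc1 fell from 133, 63.0 and 107 to 66.5, 52.4 and 58.9 CPM (-0.76 ± 0.22), and here the groups overlapped, since sham replicate 2 was below injured replicate 1. For Plxna2 as well, that sham library was the closest to the injured ones. Efnb2, a ligand of EphB receptors, Ephb4 among them, fell from 19.4, 21.3 and 16.0 to 13.2, 10.5 and 10.9 CPM (-0.71 ± 0.22).

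A pair of low genes also fell. Sema5b was at 4.13, 2.23 and 4 CPM in sham and 0.30, 1.98 and 0.64 CPM in injured ganglia (-1.80 ± 0.57). Unc5b, a netrin receptor also known from endothelium, was at 3.39, 3.72 and 2.19 CPM and at 1.64, 0.60 and 0.58 CPM (-1.71 ± 0.48). These values rest on 36 to 95 counts per library for Sema5b in sham and 5 to 36 after injury, and their groups did not overlap.

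The wild-type injury calls moved with the fit and with leaving out libraries of either group. When the fit was adjusted for detected genes, 1 member, Sema6a, was called, and 4.58% of all genes. Injured libraries had 33275 to 34340 detected genes and sham libraries 26235, 34115 and 26802. That covariate thus shares part of its variation with injury. With sham replicates 1 and 3 both left out, the fitted value of Sema6a was 2.28. That of Ntn1 was then -1.33, which rests on its level of 21.7 CPM in the lone sham library kept. That library was then assumed to vary like the other groups. The effect of Plxnc1 then went to -0.04 (adjusted p = 0.928) and that of Plxna2 to -0.28 (0.48), while Sema3f stayed at -1.39 (0.0583) and Sema4a at 1.38 (0.0684). Leaving out sham replicate 2 moved the count of called members to 20 and the share of all genes called to 33.9%. The count was 6 without sham replicate 1 (8.29% of all genes) or 3. It was 4 without injured replicate 2 and 5 without injured replicate 3, for which the share of all genes is not given. Without the low count filter, Sema3b (adjusted p = 0.1) and Sema5a (0.0886) were not called. Only Sema6a, Sema3f and Sema4a were called without each of the 15 libraries. Sema3c lost the call without injured replicate 2 (0.70). Plxna2 lost it without that library (-0.82) or sham replicate 1 (-0.67). For Unc5b it was lost without sham replicate 1 (-1.65) or injured replicate 2 (-1.48) or 3 (-1.47). Efnb2 and Plxnc1 lost it without sham replicate 1 or 3 or injured replicate 2 or 3 (-0.82 to -0.65 and -0.77 to -0.53), Sema5a without sham replicate 1 or 3 or injured replicate 2 or 3 (0.46 to 0.57), Sema3b without sham replicate 3, any injured library or knockout sham replicate 3 (0.45 to 0.55), and Sema5b without sham replicate 1 or 3, injured replicate 1 or 3, any knockout sham library or knockout injured replicate 1 (-1.82 to -1.40).

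Markers of other cells moved with injury in the same libraries. Of the sensory neuron markers 7 of 10 were lower, their sum being 6090 to 10200 CPM in sham and 4600 to 5300 CPM in injured wild-type ganglia. All 8 macrophage markers were higher (328 to 1000 CPM against 2470 to 2630), as were all 6 neutrophil markers, 3 of 5 fibroblast markers (1380 to 3010 CPM against 2860 to 2910), 2 of 6 Schwann cell markers (9670 to 15500 CPM against 20900 to 22700), 1 of 5 endothelial markers and 1 of 4 pericyte and smooth muscle markers. All 4 red blood cell markers were higher as well (1150 to 6220 CPM against 10200 to 10300). So were 2 of 6 satellite glia markers and 1 of 4 T and NK cell markers. Mitochondrial transcripts made up 4.87% and 6.52% of counts in sham replicates 1 and 3, 15.2% in sham replicate 2 and 13.2% to 15.7% in the injured libraries. The part of these cells, or of the mitochondrial share, in the changes of the guidance genes was not tested. In bulk ganglia, fewer cells of a type and less RNA per cell cannot be told apart.

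**Figure D2:**
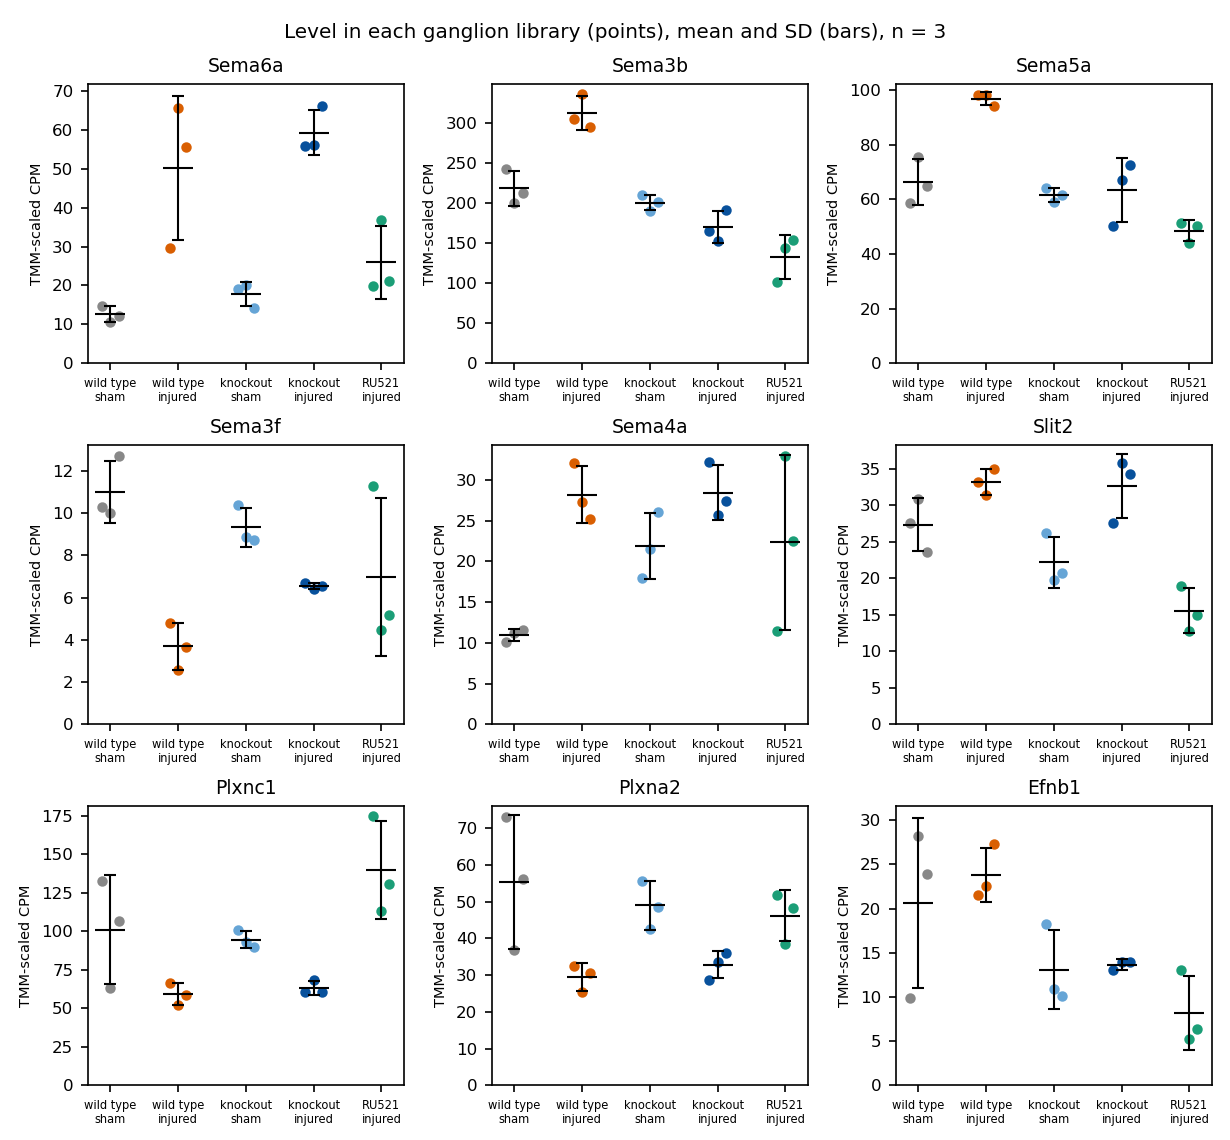
TMM-scaled CPM of 9 guidance genes in each of the 15 ganglion libraries, by group, with linear axes from 0; points are libraries and bars are the mean and SD of 3. Sema6a is higher in all injured libraries without RU521 (29.6 to 66 CPM) than in sham libraries (10.7 to 20.1 CPM), and Sema3b and Sema5a are highest in wild-type injured ganglia.

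In Ptpn2 knockout ganglia, injury raised 1 member, Sema6a, and lowered 1, Sema5b, out of 67 (2.99%, against 10.9% of all genes, 6.34% higher and 4.57% lower). Sema6a was at 19.1, 20.1 and 14.2 CPM in sham and 55.8, 56.1 and 66 CPM in injured knockout ganglia, a log2 fold change of 1.73 ± 0.28 (edgeR adjusted p = 0.00113). Every injured library was far above every sham library, and the call held without each library in turn (1.57 to 1.83). Sema5b fell from 2.03, 2.27 and 2.21 to 0.44, 0.87 and 0.33 CPM (-1.98 ± 0.61, edgeR adjusted p = 0.0494), from 32 to 38 counts per library to 5 to 13. It lost the call without any of the 6 libraries compared (-2.48 to -1.73). It also lost it without wild-type sham replicate 3 (edgeR adjusted p = 0.063) or wild-type injured replicate 3 (0.0613). Those wild-type libraries enter only through the estimated spread, the scaling and the low count filter. With DESeq2's size factors in edgeR the adjusted p of Sema5b was 0.0501.

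The count of called members in the knockout was 12 without wild-type sham replicate 2, where 19% of all genes were called. It was 5 without RU521 replicate 2 and 4 without wild-type sham replicate 1 (11.6% of all genes). It was 1 without wild-type sham replicate 3, wild-type injured replicate 3, knockout sham replicate 1 or 3, or any knockout injured library. The share of all genes is not given for the counts of 5 and 1. Both wild-type sham libraries that stood apart were also left out together, which changed no knockout library. The fitted values then included -0.58 for Plxna2, -0.58 for Plxnc1, -0.66 for Robo2, 0.55 for Slit2 and 0.79 for Ntn1. In the fit of all libraries these stood at adjusted p = 0.0923, 0.0987, 0.16, 0.0553 and 0.268 by edgeR. In knockout ganglia 4 of 10 sensory neuron markers were lower and 7 of 8 macrophage markers higher after injury, and 0 of 6 Schwann cell markers passed in either direction. Of neutrophil markers 4 of 6 were higher, of fibroblast markers 1 of 5 higher and of satellite glia markers 1 of 6 lower. The endothelial, pericyte and smooth muscle, red blood cell, and T and NK cell lists had no call. The part of these cells in the changes was not tested.

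The injury effects in both genotypes come from separate libraries and could be set against each other. Across the 67 members the fitted log2 changes had a Pearson correlation of 0.643, given as a description, since genes are not independent replicates. The sign was shared by 45 of 67 members, and by 10 of the 11 called in wild type. The exception was Sema3b, at 0.52 ± 0.15 in wild type and -0.24 ± 0.15 in the knockout. Unc5b (-1.71 and -1.54) and Sema6a (2.00 and 1.73) had close values in both. Sema4a (1.36 and 0.38), Sema5a (0.55 and 0.04) and Sema3f (-1.58 and -0.51) had smaller fitted values in the knockout.

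The test of that difference, the interaction of genotype and injury, called 0 of 67 members (0.448% of all genes), with 5 at an unadjusted p under 0.05. By DESeq2 it also called 0 and by limma-voom with sample weights 4. The smallest p belonged to Sema3b (-0.76 ± 0.21, unadjusted p = 0.00277, edgeR adjusted p = 0.192). Sema4a (-0.98 ± 0.39) had an adjusted p of 0.4 by edgeR, Sema5a (-0.51 ± 0.20) of 0.409 and Sema3f (1.07 ± 0.44) of 0.435. With both wild-type sham libraries that stood apart left out, the fitted value was -0.93 for Sema3b and 2.12 for Ntn1. Both values rest on the lone wild-type sham library kept.

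**Figure D3:**
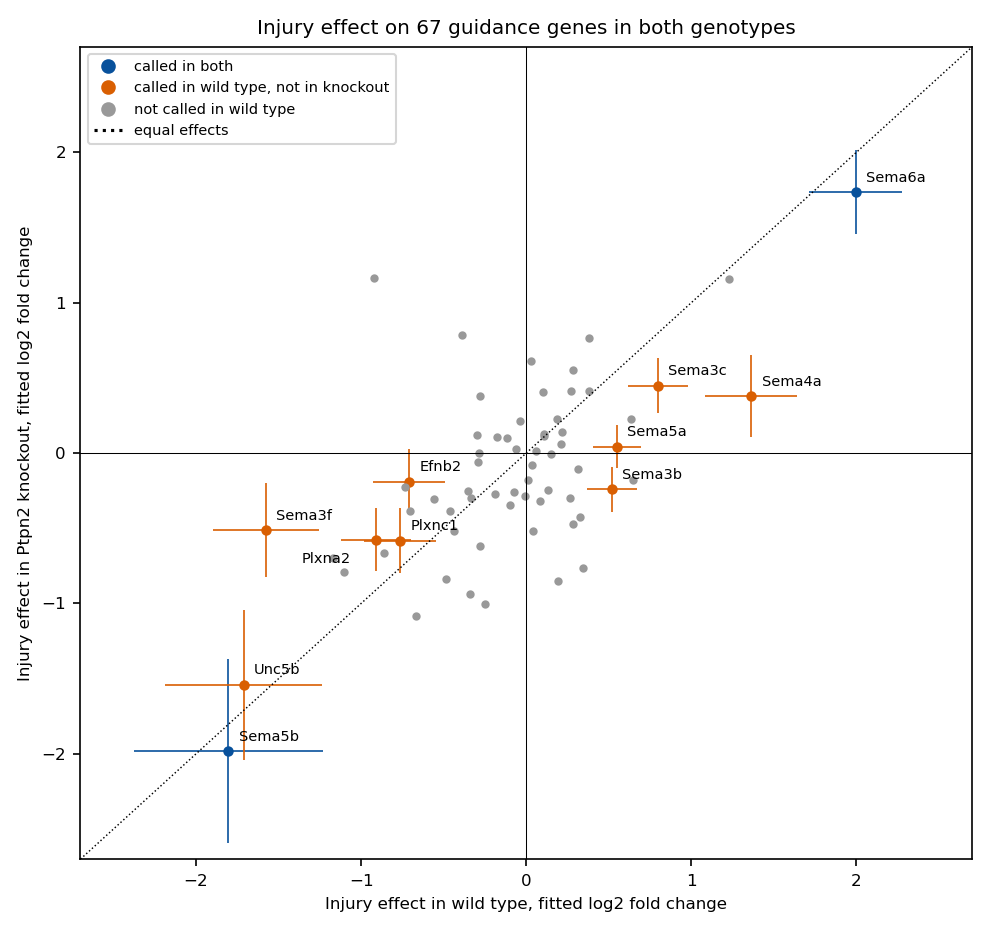
Fitted log2 fold change of injury against sham for 67 guidance genes, in wild-type (horizontal) and Ptpn2 knockout ganglia (vertical); bars are the SE of the members called in wild type, and the dotted line marks equal effects. Sema6a, Sema5b and Unc5b lie near the line, and Sema3b is the called member whose sign differs (0.52 and -0.24).

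Between genotypes, no member passed in sham ganglia (0 of 67 by edgeR, 0.135% of all genes; 4 members at an unadjusted p under 0.05, and 1 called by DESeq2). The smallest p was that of Sema4a, which was at 18.0, 21.5 and 26.1 CPM in the knockout and 10.1, 11.2 and 11.6 CPM in wild type (0.99 ± 0.28, edgeR adjusted p = 0.209). These libraries did not overlap. Without RU521 replicate 1, Sema4a was called (0.99, edgeR adjusted p = 0.0298). That library enters only through the estimated spread, the scaling and the low count filter. Ntn1, the best known attractant of commissural axons, was at 4.66, 5.01 and 5.05 CPM in the knockout and 4.05, 21.7 and 7.42 CPM in wild type (-1.17 ± 0.42, adjusted p = 0.386 by edgeR), where 1 wild-type library, replicate 2, was far above all others. Fitted values were below 0 for 55 of the 67 members, with a median of -0.21 against -0.04 over all genes. Of fibroblast markers 1 of 5 was lower, and the marker lists of neurons, satellite glia, Schwann cells and macrophages had no call.

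After injury, 2 of 67 members were lower in the knockout (2.99%, against 2.2% of all genes called, 0.81% lower and 1.39% higher) and 0 were higher. Sema3b was at 165, 153 and 192 CPM in the knockout and 306, 337 and 296 CPM in wild type, with a wide gap between groups (-0.88 ± 0.15, edgeR adjusted p = 0.00399). It was called under each of the 7 alternatives run and without each library in turn (-0.97 to -0.81). Sema5a was at 50.2, 67.1 and 72.7 CPM in the knockout and 98.3, 98.4 and 94.2 CPM in wild type, also without overlap (-0.61 ± 0.14, edgeR adjusted p = 0.0333). Its call was lost without the low count filter (adjusted p = 0.111), without any wild-type injured library, without knockout injured replicate 1 or 2, and without knockout sham replicate 2 or RU521 replicate 3 (-0.66 to -0.48). The count of called members was then 1, except without knockout sham replicate 2, where it was 2.

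Ephb6, a catalytically inactive EphB receptor, came closest among the others. It was at 19.8, 19.2 and 17.5 CPM in the injured knockout and 35.4, 30 and 29.4 CPM in wild type (-0.75 ± 0.19), which did not pass by edgeR (adjusted p = 0.0517) and passed by DESeq2 (0.00832). Nrp2 was at 35.2, 36.5 and 38.9 CPM against 47.4, 48.8 and 48.4 CPM (-0.39 ± 0.13, edgeR adjusted p = 0.156), a small difference without overlap. Its partner Nrp1 was at 52.7, 52.8 and 50.8 CPM against 54.7, 62.1 and 64.3 CPM (-0.21 ± 0.18). Plxna1, a plexin that pairs with neuropilins, was at 11.3, 5.27 and 8.84 CPM against 8.82, 11.2 and 16.9 CPM (-0.54 ± 0.38), with wide overlap. Epha5, a receptor of ephrin-A ligands, was at 16.2, 25.5 and 17.8 CPM against 11.3, 8.63 and 15.7 CPM (0.74 ± 0.26, edgeR adjusted p = 0.196), higher in every knockout library.

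Summed over the 69 members, CPM was 1150 to 1246 in injured knockout and 1423 to 1474 in injured wild-type ganglia, a sum in which Sema3b weighs most. Fitted values were below 0 for 49 of 67 members, with a median of -0.31 against -0.01 over all genes. Beside these values, 2 of 6 Schwann cell markers were lower in the injured knockout (sum 9460 to 11900 CPM against 20900 to 22700), 3 of 5 fibroblast markers were lower (1900 to 2140 CPM against 2860 to 2910) and 2 of 8 macrophage markers higher (2820 to 3350 CPM against 2470 to 2630). The sensory neuron markers had no call (5030 to 5200 CPM against 4600 to 5300). Their part in the lower Sema3b and Sema5a was not tested.

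In injured wild-type ganglia 4 members were higher and 9 lower with RU521 than without it, 13 of 67 (19.4%, against 9.58% of all genes, 5.1% higher and 4.48% lower), and 27 had an unadjusted p under 0.05. Of the ligands, 1 semaphorin (Sema4b) and 1 ephrin-A (Efna1) were higher, and 4 semaphorins, 1 Slit and 1 ephrin-B were lower. Of the receptors, 2 plexins were higher and 2 EphB receptors and 1 Robo receptor were lower. The median log2 difference was -0.24 over the members and -0.03 over all genes.

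Called members that stayed past the threshold under all 7 alternatives and without each of the 15 libraries were Sema3b, Sema5a, Slit2 and Plxnc1. Sema3b was at 102, 144 and 154 CPM with RU521 and 306, 337 and 296 CPM without it (-1.23 ± 0.15, edgeR adjusted p = 0.00055). Every RU521 library was also below every sham library (200 to 243 CPM). Sema5a was at 51.4, 44.1 and 50.1 CPM against 98.3, 98.4 and 94.2 CPM (-1.0 ± 0.14, edgeR adjusted p = 0.00141), again below the wild-type sham libraries. Slit2, a secreted repellent for axons that express Robo receptors, was at 18.9, 12.8 and 14.9 CPM against 33.2, 31.4 and 34.9 CPM (-1.10 ± 0.18, edgeR adjusted p = 0.00285). Plxnc1 was the increase among these, at 175, 113 and 131 CPM against 66.5, 52.4 and 58.9 CPM (1.24 ± 0.22, edgeR adjusted p = 0.00421). None of these groups overlapped.

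On the GRCm38 annotation in the ganglion file, Sema3b lies at chromosome 9: 107597674 to 107609229 (minus strand), Sema5a at chromosome 15: 32244810 to 32696341 (plus), Slit2 at chromosome 5: 47983138 to 48307733 (plus) and Plxnc1 at chromosome 10: 94790866 to 94944835 (minus). Their counts cover all exons, UTRs included. The promoters of 3 of these 4 genes are shown because these members moved under RU521 in every fit. RefSeq sequence of build GRCm38.p6 was matched by symbol, and 59 of the 69 members had an entry. Each sequence is the 250 bases before the start in the RefSeq entry, 5′ to 3′ on the gene's strand. That start differs by some bases from the gene positions given above. The Sema5a and Slit2 windows reach into the gene as placed there, and the Plxnc1 window stops short of it. Capitals mark GC boxes (GGGCGG or its complement CCGCCC), the motif bound by Sp1-family factors.
Sema5a, chr15:32244563-32244812, plus strand: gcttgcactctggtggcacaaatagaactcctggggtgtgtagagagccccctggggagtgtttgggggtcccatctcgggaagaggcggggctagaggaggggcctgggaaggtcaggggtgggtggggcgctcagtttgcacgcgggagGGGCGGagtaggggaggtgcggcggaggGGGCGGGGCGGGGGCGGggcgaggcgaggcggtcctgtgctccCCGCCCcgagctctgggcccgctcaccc
Slit2, chr5:47982905-47983154, plus strand: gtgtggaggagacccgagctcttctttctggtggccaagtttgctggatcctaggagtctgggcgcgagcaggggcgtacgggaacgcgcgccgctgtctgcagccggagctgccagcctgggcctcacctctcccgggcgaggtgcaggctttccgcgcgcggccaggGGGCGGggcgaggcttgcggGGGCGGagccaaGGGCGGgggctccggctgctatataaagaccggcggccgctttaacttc
Plxnc1, chr10:94944846-94945095, minus strand: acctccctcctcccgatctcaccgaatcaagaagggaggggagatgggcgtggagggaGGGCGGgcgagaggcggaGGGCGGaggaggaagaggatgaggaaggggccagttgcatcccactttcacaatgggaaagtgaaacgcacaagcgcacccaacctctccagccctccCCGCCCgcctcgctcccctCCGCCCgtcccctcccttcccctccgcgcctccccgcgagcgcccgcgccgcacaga

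These windows are rich in G and C (72.0% in Sema5a, 69.6% in Slit2 and 68.8% in Plxnc1, against a median of 52.4% over 32851 promoter windows). They hold 5, 3 and 4 GC boxes on either strand, of which some in Sema5a run into each other. A GC box was in 70.67% of the 75 windows of members and in 32.74% of all windows. The AP-1 motif TGANTCA and the STAT motif TTCNNNGAA, also searched on both strands, were in none of these 3 windows. They were in 4.0% and 2.67% of the members' windows and in 6.75% and 7.02% of all windows. A match is a description of letters and says nothing of binding.

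The other RU521 calls were less stable. With a covariate for detected genes 6 of the 13 calls held, and Sema3c (-0.62), Efna1 (0.43), Ephb1 (-0.93), Ephb4 (-0.93), Plxnd1 (0.64), Robo4 (-1.03) and Sema4b (0.55) were no longer called, with adjusted p of 0.0663 to 0.143. RU521 replicate 1 stood apart in its group, with 28803 detected genes against 32488 and 30938, a mitochondrial share of 7.83% against 15.5% and 11.3%, and macrophage markers at 997 CPM against 3030 and 2070 CPM. Efnb1, a ligand of EphB receptors, was at 13.0, 5.28 and 6.37 CPM with RU521 and 21.5, 22.6 and 27.3 CPM without it (-1.53 ± 0.37, edgeR adjusted p = 0.0191). It was called under all 7 alternatives and lost the call without injured replicate 2 (-1.56) or 3 (-1.42) or RU521 replicate 3 (-1.37). The EphB receptor gene Ephb1, at 2.91, 2.33 and 3.00 CPM against 6.88, 5.83 and 4.24 CPM (-1.04 ± 0.28), was lower as well. So was Ephb4, an endothelial Eph receptor, at 6.29, 4.28 and 3.25 CPM against 11, 11.5 and 11.6 CPM (-1.31 ± 0.37). Robo4, the Robo of endothelium, was at 2.02, 2.77 and 2.93 CPM against 7.24, 5.72 and 8.10 CPM (-1.45 ± 0.42). No RU521 library of these genes reached the lowest library without RU521.

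Sema6a stood at 19.9, 36.8 and 21.1 CPM with RU521 and 29.6, 65.5 and 55.5 CPM without it. Here the groups overlapped, since RU521 replicate 2 was above injured replicate 1 (-0.96 ± 0.27, edgeR adjusted p = 0.0387). All 3 RU521 libraries were above the wild-type sham libraries, the lowest at 19.9 against 14.8 CPM. Sema3c was lower as well, at 24.0, 35.0 and 27.0 CPM against 41.7, 49.9 and 42.9 CPM (-0.65 ± 0.18).

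Among the increases, Sema4b, a membrane semaphorin, was at 34.5, 22.4 and 26.3 CPM against 19.2, 14.9 and 13.9 CPM (0.79 ± 0.20). Plxnd1, the receptor of Sema3e with a known part in vessels, was at 68.7, 32.2 and 52.5 CPM against 28.3, 28.9 and 31.5 CPM (0.79 ± 0.24, edgeR adjusted p = 0.0499). Efna1 was at 74.4, 53.9 and 66.8 CPM against 45.8, 34.7 and 41.9 CPM (0.67 ± 0.19). The lowest RU521 library of Plxnd1 was only just above the highest without RU521.

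Among the members not called, those with positive values and an unadjusted p under 0.05 included Plxna2 (0.65 ± 0.21), Robo2 (0.83 ± 0.29), Slit1 (1.15 ± 0.38), Sema3f (0.93 ± 0.32) and Unc5b (1.22 ± 0.48). Their edgeR adjusted p was 0.0651, 0.0786, 0.0652, 0.0795 and 0.119. Robo2, the main Robo of these ganglia, was at 106, 83.1 and 98.6 CPM with RU521 and 69.7, 37.3 and 54.2 CPM without it, and at 132, 47.2 and 114 CPM in wild-type sham ganglia. Slit1 was at 22.6, 13.8 and 22.3 CPM against 10.6, 6.54 and 9.19 CPM, without overlap.

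**Figure D4:**
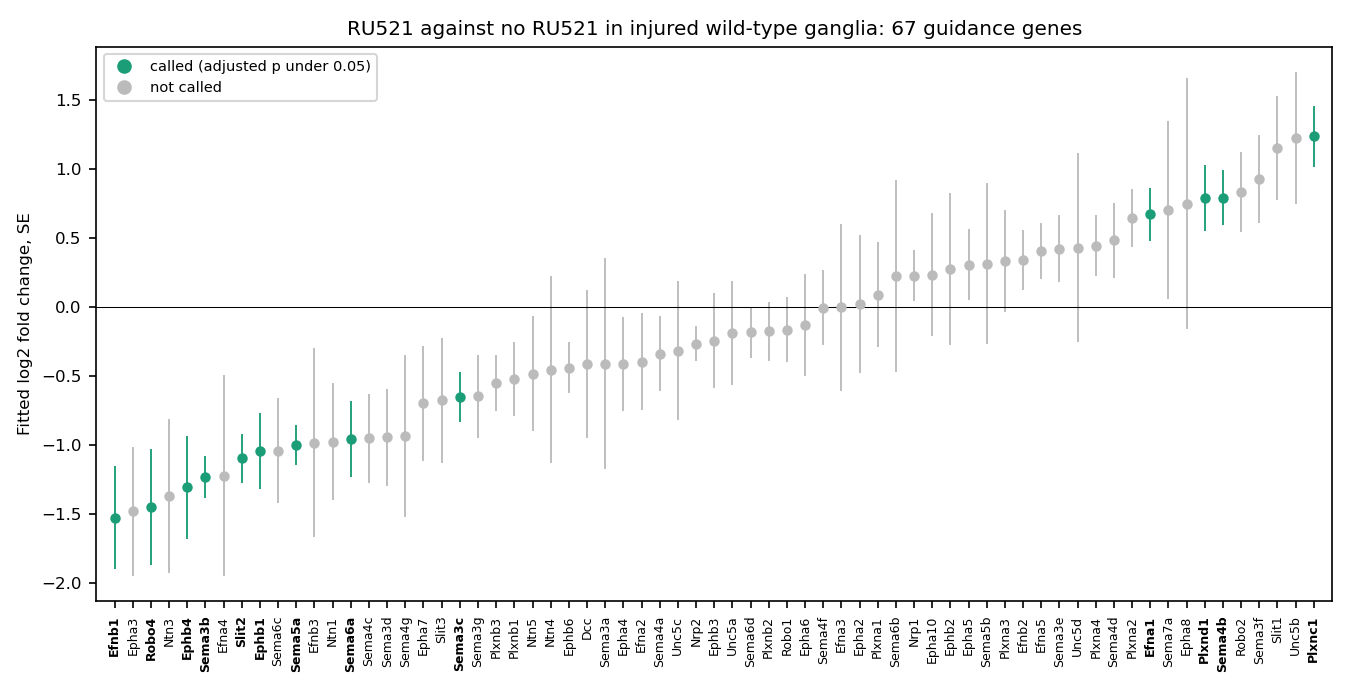
Fitted log2 fold change (points) and SE (bars) of RU521 against no RU521 in injured wild-type ganglia for 67 guidance genes, ordered by size, with the 13 called members in green and bold. The 9 decreases run from Efnb1 (-1.53) to Sema3c (-0.65) and the 4 increases from Efna1 (0.67) to Plxnc1 (1.24).

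Leaving out 1 library moved the RU521 count to 4 without wild-type injured replicate 2 or RU521 replicate 3, to 5 without wild-type injured replicate 3, to 6 without RU521 replicate 1, and to 8 without wild-type injured replicate 1, knockout sham replicate 3 or knockout injured replicate 1 or 3. It was 19 without wild-type sham replicate 2, where 18% of all genes were called, and 17 without RU521 replicate 2. The share of all genes is not given for the other counts, so they cannot be read as a result about the members. Of the libraries compared, leaving out any wild-type injured library, or RU521 replicate 1 or 3, ended the calls of Sema3c (-0.69 to -0.53), Efna1 (0.57 to 0.77), Plxnd1 (0.52 to 0.84) and Robo4 (-1.57 to -1.30, which also lost it without RU521 replicate 2). Wild-type injured replicate 2 or 3 or RU521 replicate 1 or 3 did so for Sema6a (-0.88 to -0.71) and Sema4b (0.61 to 0.83). Ephb1 lost it without wild-type injured replicate 1 or 2 or any RU521 library (-1.11 to -0.87), and Ephb4 without any wild-type injured library or RU521 replicate 2 or 3 (-1.32 to -1.11). Leaving out libraries of other groups also ended the calls of Sema6a, Efna1, Ephb4, Plxnd1 and Robo4, with adjusted p of 0.0506 to 0.0689 by edgeR. The wild-type sham and knockout libraries enter this comparison only through the estimated spread, the scaling and the low count filter, which were redone in each fit.

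Markers of several cell types differed with RU521 as well. All 6 Schwann cell markers were lower (7760 to 9430 CPM against 20900 to 22700), 4 of 5 fibroblast markers were lower (1210 to 1510 CPM against 2860 to 2910), as were 2 of 5 endothelial markers (86.7 to 105 CPM against 162 to 178), 1 of 4 pericyte and smooth muscle markers, 1 of 6 satellite glia markers and 2 of 8 macrophage markers (997 to 3030 CPM against 2470 to 2630). Of sensory neuron markers 5 of 10 were higher (5980 to 9380 CPM against 4600 to 5300). The part of these cells in the lower Sema3b, Sema5a, Slit2, Ephb4 and Robo4 and the higher Plxnc1 was not tested.

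The genotype and RU521 comparisons share the injured wild-type libraries, so their values are only set side by side. Sema3b was lower in the knockout by -0.88 ± 0.15 and with RU521 by -1.23 ± 0.15, and Sema5a by -0.61 ± 0.14 and -1.0 ± 0.14. Slit2 was at 27.6, 35.8 and 34.3 CPM in the injured knockout (-0.03 ± 0.17), against -1.10 ± 0.18 with RU521. Plxnc1 was at 60.8, 68.2 and 60.6 CPM there (0.09 ± 0.22). The injury comparison in wild type shares these libraries too: the 5 semaphorins it raised had RU521 values of -0.96 (Sema6a), -0.34 (Sema4a), -0.65 (Sema3c), -1.0 (Sema5a) and -1.23 (Sema3b).

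Other genes of the guidance pathways were taken from lists of 54 signalling effectors and 42 further ligands, receptors and co-receptors, of which 54 and 41 were tested. Of the effectors 5 rose and 6 fell with injury in wild type, where 16.6% of all genes were called. Sos1, an exchange factor for Ras and Rac that Robo signalling uses, fell (-1.15 ± 0.25), and Fes, a tyrosine kinase of semaphorin signalling that is also high in myeloid cells, rose (2.05 ± 0.45). Dock1, a Rac exchange factor, rose (0.78 ± 0.20), and Ablim1, an actin-binding protein, fell (-0.58 ± 0.15). In the knockout, where 10.9% of all genes were called, 1 rose (Rnd1, a small GTPase that binds plexins, 1.45 ± 0.36) and 2 fell, Ablim1 (-0.63 ± 0.15) and the Rac regulator Chn1 (-0.80 ± 0.20), which acts downstream of Eph receptors. With RU521, where 9.58% of all genes were called, 4 were higher, among them the Slit-Robo GTPase-activating gene Srgap1 (1.29 ± 0.30), Sos1 (1.09 ± 0.25) and the collapsin response gene Dpysl3 (0.97 ± 0.23), and 3 were lower, among them Rac1 (-1.77 ± 0.41).

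Of the 41 further guidance genes 2 rose and 9 fell in wild type, where 8.6% of all genes were called higher and 7.98% lower. In the knockout 3 rose and 5 fell, against 6.34% and 4.57% of all genes. Flrt3, a transmembrane partner of Unc5 and Robo receptors, rose most clearly, from 32 ± 11 to 151 ± 42 CPM (SD) in wild type (2.23 ± 0.31) and from 37.5 ± 5.91 to 242 ± 38.2 CPM in the knockout (2.69 ± 0.31). Ntng2, a membrane-anchored netrin-G, fell in both (-1.39 ± 0.28 and -1.30 ± 0.29). The myelin-associated inhibitor Omg (-1.38 ± 0.30) and the adhesion gene Cntn1 (-1.02 ± 0.23) fell in wild type, and both were also called as lower in the knockout. Chl1, a co-receptor for Sema3 signals, rose in the knockout (1.04 ± 0.24) and was called in wild type too, and the netrin-G ligand Lrrc4c fell in the knockout (-0.67 ± 0.15). With RU521 2 were higher and 2 lower, against 5.1% and 4.48% of all genes: the Nogo receptor relative Rtn4rl1 (1.24 ± 0.29) and Rtn4 itself (0.87 ± 0.22) were higher, and Gas1 (-2.08 ± 0.52) and Lrrc4c (-0.60 ± 0.15) lower. Neither list had a call between genotypes or in the interaction.

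In picked retinal ganglion cells fewer members were detected, 29 to 41 of 69 per library. Of the 69 members, 12 reached 3 counts in all 12 libraries (Efna1, Efna5, Efnb1, Epha4, Epha5, Nrp1, Nrp2, Plxna2, Robo2, Sema3e, Sema4f and Sema6a), 25 in 6 to 11 libraries, 26 in 1 to 5 and 6 in none. Epha2, Epha3, Ephb4, Ntn4 and Sema5b had no count in any retinal library and Epha1 had 1 count in 1 library. At the floor, this allows up to 0.175 to 0.227 CPM per library.

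No member passed in any of the 6 retinal comparisons by edgeR (0 of 49 in each). The share of all genes called was 0% for IFNγ in wild type, for IFNγ in the knockout, for genotype with IFNγ and for the interaction. It was 0.0222% for genotype with PBS and 0.0519% when IFNγ-treated knockout cells were set against PBS-treated wild-type cells. At an unadjusted p under 0.05 the members counted 4, 8, 6, 8, 6 and 6 in that order, and DESeq2 called 1, 5, 3, 5, 5 and 2. The share of all genes that DESeq2 called is not given, so its counts cannot be read as a result about the members. The biological coefficient of variation was 1.27 here against 0.262 in ganglia.

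Sema6a, which rose with injury in ganglia, was at 168, 204 and 116 CPM in wild-type cells with PBS and 137, 225 and 182 CPM with IFNγ. The knockout held 172, 105 and 81.9 CPM with PBS and 445, 205 and 79.9 CPM with IFNγ. All 4 groups overlapped, and since every retinal library was injured these values say nothing of injury. Plxna2, its receptor, was at 67.1, 120 and 30.2 CPM, then 67.4, 89.9 and 93.1 CPM, 121, 97.0 and 50.3 CPM and 24.5, 21.9 and 80.3 CPM in the same order of groups. Efna1 was at 25.1, 16.8 and 73.3 CPM, then 51.6, 25.7 and 5.32 CPM, 69.2, 146 and 54.4 CPM and 100, 57.0 and 51.1 CPM, again with overlap.

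Epha5, a receptor through which ephrin-A gradients map retinal axons, was at 63.8, 103 and 65.9 CPM in wild type with PBS. It was at 2.01, 34.7 and 11 CPM in the knockout with PBS (-2.27 ± 1.07, edgeR adjusted p = 0.517). The libraries did not overlap, but the knockout libraries differed widely among themselves. With IFNγ it was at 11.7, 65.7 and 42.4 CPM in wild type and 4, 37.7 and 105 CPM in the knockout. Nrp2, a receptor subunit for Sema3f, was at 3.25, 5.38 and 4.27 CPM in wild type with PBS and 10.9, 15.6 and 3.71 CPM with IFNγ. In the knockout it was at 2.85, 97.7 and 32.7 CPM with PBS and 123, 81.2 and 56.8 CPM with IFNγ. Every knockout library with IFNγ was above every wild-type library, and the difference from wild type with PBS was 4.34 ± 1.02 (edgeR adjusted p = 0.324, 0.000223 by DESeq2). The high knockout PBS value, 97.7 CPM, was in the library with macrophage markers at 2570 CPM and Müller glia markers at 2000 CPM. Without that library the genotype difference with PBS went from 3.38 to 2.04.

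Efnb1 was at 8.60, 20.6 and 15 CPM in wild type with PBS and 3.42, 3.52 and 3.03 CPM with IFNγ, and at 10.8, 21.5 and 36.0 CPM and 31.6, 11.1 and 178 CPM in the knockout. With IFNγ the knockout was higher in every library (4.47 ± 0.99, edgeR adjusted p = 0.856, 5.28e-05 by DESeq2). Robo2 had the smallest adjusted p of the members in retinal cells. It was at 76.0, 48.9 and 22.1 CPM in wild type with PBS and 1.51, 2.19 and 2.39 CPM in the knockout with PBS, a wide gap (-4.58 ± 0.73, edgeR adjusted p = 0.0618, 3.83e-09 by DESeq2). Without wild-type PBS replicate 3 its adjusted p was 0.0316 (-4.93), the only member call when retinal libraries were left out in turn. That library held rod photoreceptor markers at 591 CPM against 3.25 and 10.8 CPM in the others of its group, and 4.82 to 181 CPM in the other retinal groups, and their part in the values was not tested. With IFNγ, Robo2 was at 25.2, 45.6 and 51.6 CPM in wild type and 12.9, 26.9 and 26.5 CPM in the knockout (-0.88 ± 0.64).

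Nrp1 was low in retinal cells, at 2.01, 6.43 and 20.1 CPM in wild type with PBS, 2.90, 2.64 and 2.91 CPM with IFNγ, and 28.8, 14.5 and 13.9 CPM and 10.4, 8.60 and 7.85 CPM in the knockout. Plxna1 ranged from 0 to 37.0 CPM over the 12 libraries and was at 0 in 2 of them. Across the 49 members tested, the fitted IFNγ effects in wild type and knockout, which share no library, had a Pearson correlation of -0.01 and shared their sign in 28, and the genotype effects with PBS and with IFNγ had 0.18 and 25. In ganglia the genotype effects in sham and injured mice had 0.30 and shared their sign in 49 of 67. These are descriptions over genes.

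**Figure D5:**
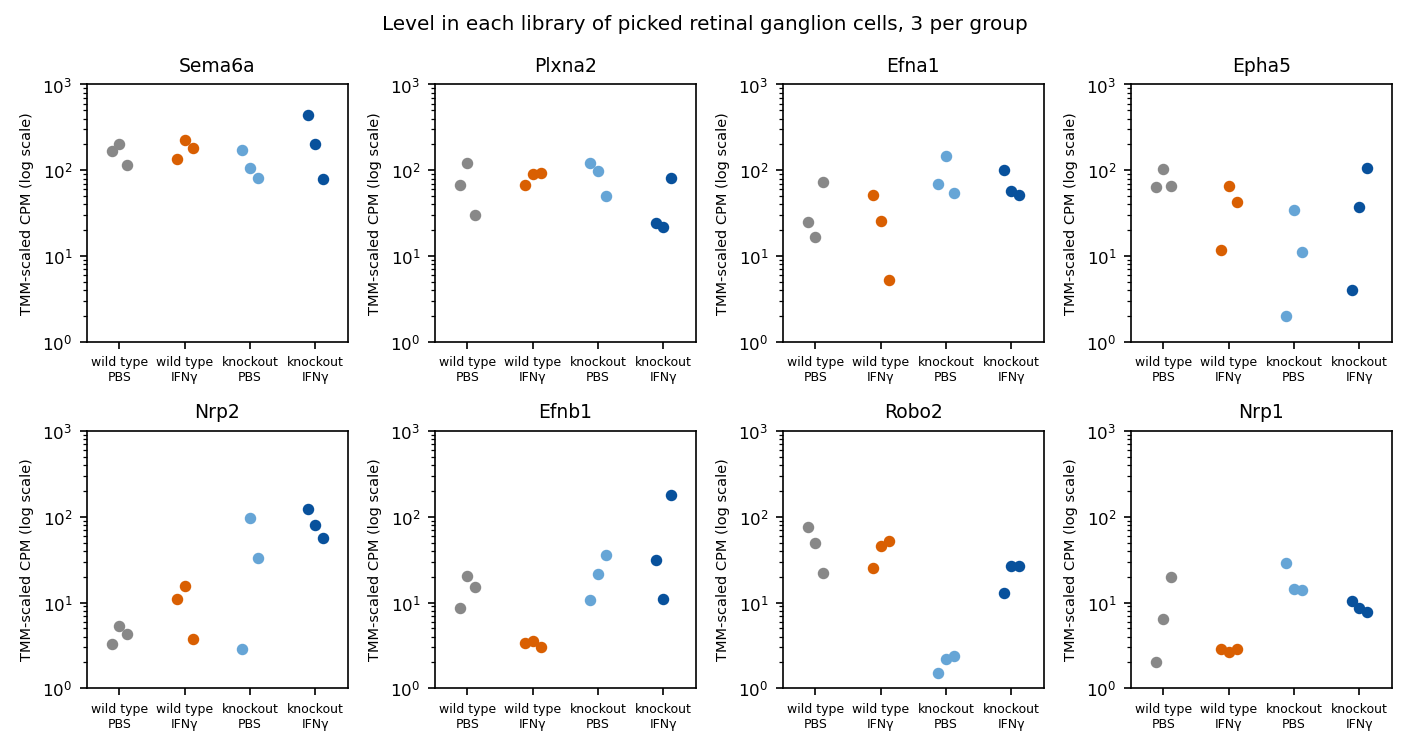
TMM-scaled CPM on a log axis of 8 guidance genes in each of the 12 libraries of picked retinal ganglion cells, by group. Robo2 is lowest in the knockout with PBS (1.51 to 2.39 CPM) and Nrp2 is higher in the knockout with IFNγ (56.8 to 123 CPM) than in wild type (3.25 to 15.6 CPM), while libraries of most other groups overlap.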

How the data were processed

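Whole-transcript RNA-seq counts of 15 ganglion and 12 retinal libraries were used as deposited. The ganglion counts were made by the authors with featureCounts 2.0.1 on Ensembl 101 exons by gene, for paired, unstranded, primary alignments of mapping quality 10 or more, per the file headers, so a gene and an antisense partner cannot be told apart. Trim Galore, STAR and GRCm38 (mm10) are named in the submitters' processing notes. The counter and annotation behind the retinal counts were not given in the sources used here. Their last unnamed line, equal to the column sums in 12 of 12 libraries and 50% of the file total, was left out. Groups came from the labels.

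Each experiment was fitted over all its groups with edgeR 4.0.16 under R 4.3.3 (scaling by TMM, low count filter at 10 counts and 15 in total, robust quasi-likelihood test), with Benjamini-Hochberg adjustment over 18517 ganglion and 13487 retinal genes and a threshold of 0.05. Fitted log2 values used a prior count of 0.125. Their SE was derived from the test, as the absolute log2 value divided by the square root of its F statistic. The fit was tested on simulated data. Alternatives were DESeq2 size factors, no filter, DESeq2 1.42.0, limma 3.58.1 with voom and sample weights, a replicate block, a covariate for detected genes, and leaving out each library. Leaving out both wild-type sham libraries with few detected genes was added after seeing the data. Members named are those called in any comparison, the highest per kilobase of each class, 6 of the 12 detected in all retinal libraries (those with the highest mean CPM), and Sema6a, Plxna1 and Nrp1. The members and lists were chosen with earlier results of these data known. Floors cover counting error only.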

Additional observations from a re-analysis of the deposited data

Results flagged for a closer look

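In retinal ganglion cells, IFNγ and PBS libraries did not overlap in either genotype, with opposite directions, for 1 of 69 members, Plxnb2. It is a plexin that binds class 4 semaphorins. The share of all genes with such a pattern was not computed, so this is only a description of 3 libraries per group. It was at 0, 0 and 0.809 CPM in wild type with PBS and 2.61, 7.31 and 26.6 CPM with IFNγ, and at 17.3, 38.8 and 10.2 CPM in the knockout with PBS and 4.32, 0.898 and 3.26 CPM with IFNγ. The interaction was -8.43 ± 2.57 on the log2 scale (unadjusted p = 0.00554, edgeR adjusted p = 0.808), which did not pass, and the fitted value depends on the prior count because 2 wild-type libraries were at 0. The highest knockout PBS value, 38.8 CPM, was in the library with macrophage markers at 2570 CPM and Müller glia markers at 2000 CPM. The part of such cells was not tested.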

How the results depend on the processing

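Over the alternatives run for single named members, 4247 values kept their side of the threshold. A further 150 kept the direction and lost the call, and 139 kept it and gained one. Of the values with a call in either fit 0 reversed, and the direction of values uncalled in both fits was not compared. Counts of called members moved more, and the share of all genes called moved as well (percentages in brackets). In wild-type injury (11, 16.6%) they were 28 with limma-voom (50%) and 1 with the detected-genes covariate (4.58%). In knockout injury (2, 10.9%) they were 4 without the filter (5.08%), 5 by DESeq2 (17.2%) and 14 with limma-voom (23.9%). With the replicate block they were 4 there (13.4%) and with the covariate 6 (16.6%). Between genotypes in sham (0, 0.135%) they were 2 without the filter (1.21%), 1 by DESeq2 (1.4%) and 7 with limma-voom (16.3%). After injury (2, 2.2%) they were 1 without the filter (1.44%), 9 with limma-voom (11.3%) and 4 with the covariate (7.41%). The interaction (0, 0.448%) had 4 with limma-voom (10.8%) and 1 with the covariate (2.03%). RU521 (13, 9.58%) had 20 by DESeq2 (18.5%), 28 with limma-voom (33.3%) and 6 with the covariate (7.53%). In retinal cells (0), DESeq2 called 1 and 5 for IFNγ in wild type and knockout, and 5 and 3 for genotype with PBS and IFNγ. It called 5 for the interaction and 2 for the last comparison, and 1 was called for genotype with PBS without the filter. The share of all genes called is not given for these retinal counts, so they describe the fits only. Leaving out 1 library gave 4 to 20 in wild-type injury, 1 to 12 in knockout injury, 0 to 1 between sham genotypes, 1 to 3 between injured genotypes, 0 for the ganglion interaction, 4 to 19 for RU521, 0 to 1 for retinal genotype with PBS and 0 in the other retinal comparisons. The counts of 20, 12 and 19 came without wild-type sham replicate 2, where 33.9%, 19% and 18% of all genes were called. For the lowest counts the share is not given.

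Deviations of same-numbered ganglion libraries correlated between -0.116 and 0.267 (over 0.1 in 6 of 30 pairs). Those of ganglion libraries with different numbers correlated between -0.266 and 0.21 (over 0.1 in 4 of 60). For retinal libraries the ranges were -0.024 to 0.056 and -0.059 to 0.058. The labels state no pairing, and these values do not settle whether the numbers pair the ganglion libraries. With the replicate block the counts were 13 in wild-type injury (19% of all genes called), 3 between injured genotypes (2.37%) and 17 with RU521 (11.5%). They were 0 in each retinal comparison. The block ended 1 call of a member, Plxnd1 with RU521 (0.77, edgeR adjusted p = 0.0558). The cause of these differences was not tested. A level of 3 counts allows up to 0.175 to 0.227 CPM in a retinal library, and lower levels cannot be read from these files.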
